A study of Mus musculus with 8 samples.

Results

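The genes described here are the components of MHC class I antigen presentation H2-K1, H2-D1, B2m, Tap1, Tap2, Tapbp, Psmb8, Psmb9, Psmb10 and Nlrc5. They were chosen by name, and all 10 were found by their gene symbol among the 32285 genes of the deposited single-cell count matrices. The cells were CD45+ cells, that is hematopoietic cells sorted from tumors on day 18 after implantation into the mammary fat pad of C57BL/6 mice. E0771 is a mouse mammary carcinoma cell line, and E0771-Res1 and E0771-Res2 are 2 lines that the authors derived from tumors of this line growing back after combined paclitaxel and anti-PD-1 therapy, so each resistant group rests on 1 derived line. The groups were 2 mice with parental E0771 tumors (replicates 1 and 3), 3 with E0771-Res1 tumors and 3 with E0771-Res2 tumors, and the labels give no drug treatment for these mice. All comparisons with parental tumors share the same 2 parental mice. Cells were labeled per mouse with oligonucleotide tags and counted as unique molecular identifiers (UMIs) at the 3′ end of transcripts.

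MHC class I molecules show CD8+ T cells a sample of the peptides made inside a cell. The proteasome cuts proteins into peptides, the TAP transporter carries the peptides into the endoplasmic reticulum, tapasin holds an empty class I molecule next to the transporter, and the loaded complex of heavy chain and β2-microglobulin moves to the cell surface. Interferons raise most of these genes, and in the presence of IFN-γ the standard catalytic subunits of the proteasome are replaced by immunosubunits. Myeloid cells of the TME use the same route to present tumor peptides, and NK cells read its loss.

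Of the 11430 deposited cells, 10605 had 500 to 6000 detected genes and under 10% mitochondrial UMIs and were kept. The mice contributed 604 to 2020 kept cells each, with 5036667 to 18894504 UMIs deposited per mouse, and no cell barcode was shared between mice. Lymphoid cells were taken as cells with at least 2 UMIs of Cd3d, Cd3e, Cd3g and Ncr1 together (1284 cells), and the other cells with myeloid transcripts were divided into C1qa-high (10 or more UMIs of C1qa, 2331 cells) and C1qa-low (at most 1 UMI, 4723 cells). Lymphoid and C1q macrophage marker genes outside the gates were highest in the classes of these names, but lymphoid cells also held myeloid markers. The 6 lymphoid markers (Trac, Trbc2, Cd2, Lck, Il2rb and Nkg7) summed to 2630 to 3873 CPM (UMIs per 1000000 counted UMIs of the mouse and class, after TMM scaling, the unit of all levels here) in lymphoid cells and to at most 186.2 in the myeloid classes, and 6 C1q macrophage markers (C1qb, C1qc, Apoe, Mrc1, Adgre1 and Ms4a7) reached 17350 to 23930 in C1qa-high and 2778 to 4044 in C1qa-low cells. The same macrophage markers stood at 3386 to 7133 in lymphoid cells, 271 of which held 10 or more C1qa UMIs, and no doublets were removed. Monocyte markers (Ly6c2, Plac8, Ccr2, Vcan and Chil3) summed to 2631 to 3938 CPM in lymphoid cells, about as high as the lymphoid markers there. They stood at 1618 to 4198 in C1qa-high and 8167 to 12660 in C1qa-low cells. B cell, tumor or stromal and erythroid markers summed to at most 38.6, 43.3 and 156 CPM in the 3 classes. Neutrophil markers (S100a8, S100a9, Csf3r and Retnlg) were higher in C1qa-low cells, at 120.4 to 598.8, and reached 118.3 in lymphoid and 97.98 in C1qa-high cells.

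Of the 10 genes, 7 lie on chromosome 17 (GRCm38). Tapbp (chr17:33915899-33929292, plus strand) and H2-K1 (chr17:33996017-34000347, minus strand) come first, followed by a tight group of Psmb9 (chr17:34181987-34187764, minus), Tap1 (chr17:34187553-34197225, plus), Psmb8 (chr17:34197721-34201454, plus) and Tap2 (chr17:34203527-34216321, plus), and then by H2-D1 (chr17:35262730-35267499, plus). B2m lies at chr2:122147686-122153083 on the plus strand, and Psmb10 (chr8:105935735-105938444, minus) and Nlrc5 (chr8:94434356-94527272, plus) lie on chromosome 8. H2-K1 and H2-D1 have near-identical relatives among which the counting could divide reads, so the values of single heavy chains are uncertain. Tap1 and Psmb9 overlap in annotated exons on opposite strands, and Tapbp overlaps Zbtb22 on the same strand. How reads in such overlaps were counted was not examined.

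Promoter windows from 250 bases before to 50 bases after the gene start (RefSeq, GRCm38.p6) were held for 8 of the 10 genes, all but Tap2 and Nlrc5, and were searched on both strands for short motifs through which interferon and NLRC5 act on this pathway, of which 2 are given. The interferon-stimulated response element (ISRE), written GAAANNGAAA, occurred in the window of B2m alone and in 3.44% of the 32851 windows of all genes. The CCAAT box, bound by NF-Y, occurred in windows of 6 of the 8 genes and in 37.4% of the windows of all genes. The matches of Tap1 and Psmb9 are the same site, and H2-K1 has more than 1 window. A match is a run of letters and not a bound site, and no match says only that these letters were not in the window. The windows of B2m (chr2:122147437-122147736, plus strand, ISRE in capitals) and Tap1 (chr17:34187306-34187605, plus strand, CCAAT in capitals) are printed because they hold these matches. The window of Tap1 shares 275 of its 300 bases with the window of Psmb9 on the opposite strand, so the 2 genes start from 1 stretch of DNA.
B2m: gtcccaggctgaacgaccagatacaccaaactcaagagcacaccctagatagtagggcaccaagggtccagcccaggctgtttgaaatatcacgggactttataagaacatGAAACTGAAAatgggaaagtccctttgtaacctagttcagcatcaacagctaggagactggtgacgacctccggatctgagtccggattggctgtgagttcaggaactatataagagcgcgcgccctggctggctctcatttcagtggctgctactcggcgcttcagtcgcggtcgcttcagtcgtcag
Tap1: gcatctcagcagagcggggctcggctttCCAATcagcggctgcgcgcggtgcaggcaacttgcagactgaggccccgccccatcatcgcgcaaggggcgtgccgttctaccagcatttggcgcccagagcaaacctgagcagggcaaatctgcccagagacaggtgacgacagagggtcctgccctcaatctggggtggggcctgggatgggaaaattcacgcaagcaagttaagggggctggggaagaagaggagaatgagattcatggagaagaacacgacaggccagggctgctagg

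These levels came from UMI counts summed per mouse and class, so each mouse gives 1 value. The 3′ counts do not allow levels to be compared between genes. From these sums alone, a lower level in a class cannot be told apart from fewer expressing cells in it. The question of the first comparison was whether the 10 genes differ between lymphoid cells, C1qa-high and C1qa-low myeloid cells of the same mice. C1qa-high cells held less of the transporter, tapasin, all 3 immunosubunits and Nlrc5 than C1qa-low cells, by 0.24 to 0.71 on the log2 scale, and more H2-K1. H2-D1 and B2m were not called different between the myeloid classes. Lymphoid cells held less B2m and H2-D1 than both myeloid classes with TMM scaling. Scaled by total counts, H2-D1 lay at 0.054 against C1qa-low and -0.016 against C1qa-high cells, and B2m at -0.07 against C1qa-low cells, none called. Only B2m against C1qa-high cells stayed called (-0.24).

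**Figure D1:**
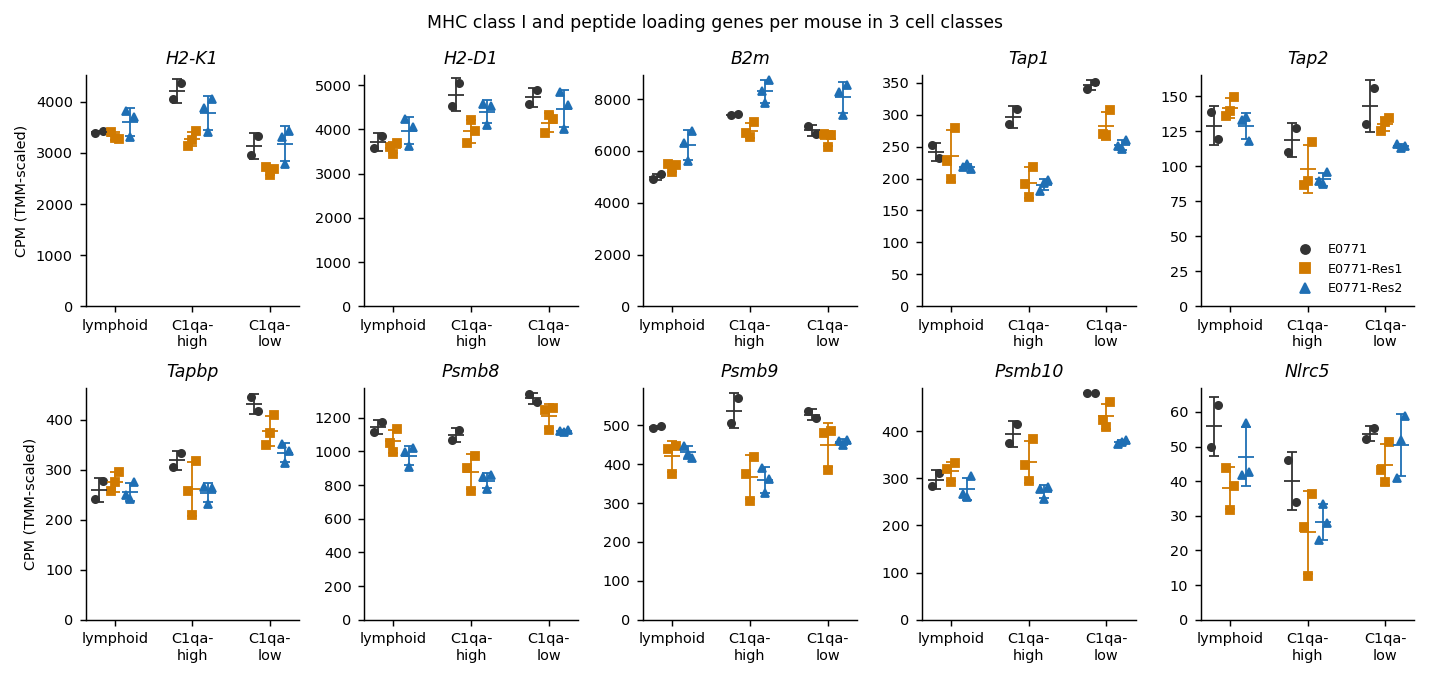
Level of each of the 10 genes (y axis, TMM-scaled CPM) in lymphoid, C1qa-high and C1qa-low myeloid cells, 1 point per mouse, colored by tumor line, with bars at the mean ± SD of each line. In C1qa-high cells both parental mice lie above all 6 resistant mice for Tap1, Psmb8 and Psmb9, and B2m is lower in the lymphoid than in the myeloid cells of each mouse. The share of all genes that divide the mice in these ways was not computed.

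The heavy chains bind the peptide and carry the surfaces seen by T cells. H2-K1 ranged from 3276 to 3828 CPM in lymphoid cells (median 3402, n = 8 mice), from 3140 to 4371 in C1qa-high cells (median 3645) and from 2564 to 3427 in C1qa-low cells (median 2872). It was higher in C1qa-high than in C1qa-low cells of all 8 mice, by 0.31 ± 0.05 (log2, SE; edgeR quasi-likelihood test, Benjamini-Hochberg adjusted p = 2.73e-06), and higher in lymphoid than in C1qa-low cells by 0.22 ± 0.05 (edgeR adjusted p = 0.000161). The ranges over mice overlapped in each case, while the order within each mouse was the same. H2-D1 ran the other way between lymphoid and C1qa-low cells, with 3449 to 4234 CPM in lymphoid cells (median 3659), 3692 to 5048 in C1qa-high cells (median 4369) and 3917 to 4883 in C1qa-low cells (median 4438). It was lower in lymphoid cells than in C1qa-high cells, by -0.20 ± 0.04, and than in C1qa-low cells, by -0.23 ± 0.04 (edgeR adjusted p = 0.000269 and 4.48e-05, 8 of 8 mice each). The myeloid classes differed in H2-D1 by -0.03 (edgeR adjusted p = 0.578).

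B2m encodes β2-microglobulin, the light chain of every class I molecule. It stood at 4931 to 6757 CPM in lymphoid cells (median 5480), at 6548 to 8755 in C1qa-high cells (median 7404) and at 6158 to 8544 in C1qa-low cells (median 6806). Each mouse had less in its lymphoid than in its myeloid cells, with a difference of -0.42 ± 0.04 from C1qa-high and -0.35 ± 0.04 from C1qa-low cells (edgeR adjusted p = 8.46e-10 and 2.21e-08). The light chain differed between the myeloid classes by 0.07 (edgeR adjusted p = 0.137).

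Tap1 and Tap2 encode the paired subunits of the peptide transporter. Tap1 ranged from 170 to 309 CPM in C1qa-high cells (median 195.5) and from 245.5 to 351 in C1qa-low cells (median 269). It was lower in the C1qa-high cells of 8 of 8 mice, by -0.41 ± 0.06 (edgeR adjusted p = 2.68e-06). Tap2 ranged from 86.9 to 127 (median 92.8) in C1qa-high cells, against 113 to 156 (median 127) in C1qa-low and 118 to 149 (median 135) in lymphoid cells, and was lower by -0.35 ± 0.06 than in C1qa-low cells (edgeR adjusted p = 2.8e-05). The partners parted in lymphoid cells. Tap2 was higher there than in C1qa-high cells, by 0.45 ± 0.07 in 7 of 8 mice (edgeR adjusted p = 1.89e-06), and was not called against C1qa-low cells (0.09), whereas Tap1 was lower than in C1qa-low cells by -0.29 ± 0.06 (edgeR adjusted p = 0.00019) and not called against C1qa-high cells. Tapbp, which encodes tapasin, stood at 241 to 296 CPM in lymphoid cells (median 266), 210 to 333 in C1qa-high cells (median 265) and 313 to 446 in C1qa-low cells (median 363). C1qa-low cells thus carried the most tapasin transcript in each mouse, with differences of -0.46 ± 0.06 for C1qa-high and -0.50 ± 0.06 for lymphoid cells against them (edgeR adjusted p = 3.23e-07 and 5.81e-08).

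Psmb8, Psmb9 and Psmb10 encode the catalytic immunosubunits β5i, β1i and β2i. Psmb8 ranged from 910 to 1174 CPM in lymphoid cells (median 1036), from 765 to 1125 in C1qa-high cells (median 879) and from 1116 to 1339 in C1qa-low cells (median 1188). The order C1qa-high, lymphoid, C1qa-low held in all 8 mice, with 0.21 ± 0.04 between lymphoid and C1qa-high cells and -0.20 ± 0.04 between lymphoid and C1qa-low cells (edgeR adjusted p = 0.000252 and 0.000301). Psmb10 ranged from 256 to 414 in C1qa-high cells (median 311.5) and from 373 to 481 in C1qa-low cells (median 417), and was lower in C1qa-high cells by -0.39 ± 0.05 and in lymphoid cells by -0.51 ± 0.05 (edgeR adjusted p = 7.81e-07 and 6.75e-09). Psmb9 differed by -0.24 ± 0.05 between C1qa-high and C1qa-low cells in 7 of 8 mice (edgeR adjusted p = 0.000609) and by 0.14 ± 0.06 between lymphoid and C1qa-high cells in 6 of 8 mice (edgeR adjusted p = 0.0279). Neither call on Psmb9 held when mouse was not in the model, and the second was also lost when E0771-Res1 replicate 1 or 2 or any E0771-Res2 mouse was left out (0.112 to 0.138). Nlrc5, the transactivator that binds class I promoters, was sparse, with 13 to 149 UMIs per mouse in C1qa-high cells. Its level was 12.5 to 46.0 CPM there (median 30.7), against 39.7 to 58.7 in C1qa-low cells (median 51.6) and 31.8 to 61.9 in lymphoid cells (median 43.3). It was lower in C1qa-high cells of all 8 mice, by -0.71 ± 0.10 against C1qa-low cells, and lymphoid cells exceeded C1qa-high cells by 0.61 ± 0.11 (edgeR adjusted p = 1e-06 and 3.4e-05).

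Over the 10 genes, C1qa-high against C1qa-low cells gave 1 higher and 7 lower with a median of -0.37 on the log2 scale, against 54.3% of all genes called in this comparison (27.5% higher, 26.7% lower) and a median of 0.025 over all genes. Lymphoid against C1qa-high cells gave 4 higher (Tap2, Psmb8, Psmb9 and Nlrc5) and 2 lower (H2-D1 and B2m) with a median of 0.04, against 59.5% of all genes (30.4% higher, 29.1% lower). Lymphoid against C1qa-low cells gave 1 higher and 6 lower with a median of -0.21, against 62.9% of all genes (32.8% higher, 30.1% lower) and a median of 0.046. Since most genes differed between the classes, the number of members called says little on its own. When counts were scaled by their total in place of TMM, an alternative added after seeing the data, the median of all genes moved by 0.181 for lymphoid against C1qa-high and by 0.277 for lymphoid against C1qa-low cells, and the share of higher calls went from 51.1% to 68.9%, from 52.1% to 75.5% and, between the myeloid classes, from 50.8% to 63%. Under it H2-D1 and Psmb8 no longer differed between lymphoid and C1qa-low cells (0.054 and 0.082), and the calls on B2m and Tap1 there and on H2-D1 against C1qa-high cells were lost (-0.07, -0.01 and -0.02).

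**Figure D2:**
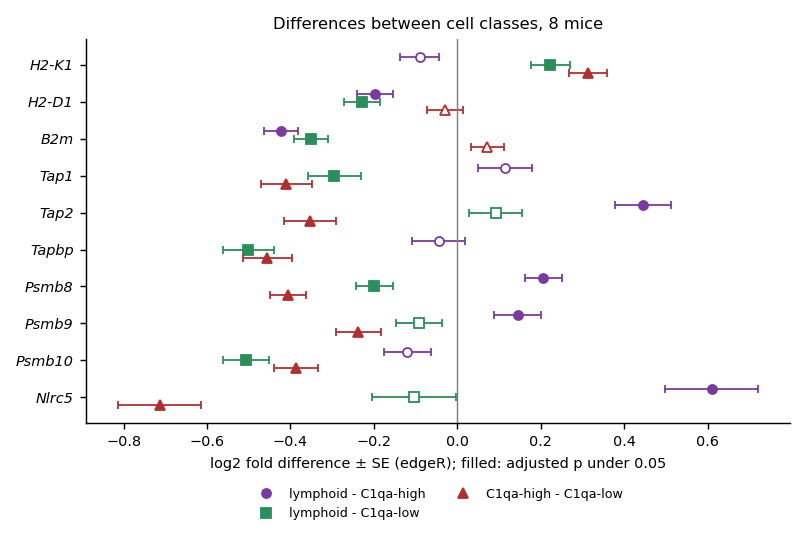
Difference of each gene between cell classes of the same mice (x axis, log2 ± SE, edgeR), with filled symbols at an adjusted p under 0.05. The C1qa-high minus C1qa-low differences are negative for Tap1, Tap2, Tapbp, the 3 immunosubunits and Nlrc5 and positive for H2-K1.

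The depth and makeup of the classes moved with these differences. C1qa-high cells had a median of 7001 to 11481 UMIs per cell and mouse and C1qa-low cells 4827.5 to 7825, and monocyte markers (Ly6c2, Plac8, Ccr2, Vcan and Chil3) summed to 1618 to 4198 and 8167 to 12660 CPM. The part of the marker difference in these results was not tested. With the gates set per 10000 UMIs of a cell, 9 of the 10 genes were called between the myeloid classes. Among lymphoid cells with at most 1 C1qa UMI (729 cells, added after seeing the data), 7 genes were called against each myeloid class, with B2m at -0.49 and Tap2 at 0.54 against C1qa-high cells.

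Other genes, taken as belonging to the pathway or its regulation, were counted from lists written from general knowledge. A listed gene, such as Sppl2a among the loading and trimming genes, need not act in the class I route. Of 16 further proteasome genes, 8 were lower and 1 higher in C1qa-high than in C1qa-low cells, led by the interferon-inducible activator subunits Psme2 (-0.69) and Psme1 (-0.42), with Psma7 (-0.41) and Psme4 (-0.38). Of 17 regulators, 9 were lower and 2 higher, among them Rfx5, which binds class I promoters with NLRC5 (-0.82), the interferon-induced transcription factor Irf1 (-0.65), the signaling inhibitor Socs1 (-0.61) and Stat2 (-0.43). Of the 11 other class I chains tested, 3 were higher and 5 lower, with H2-M2 at 1.88, the lipid-presenting Cd1d1 at -1.07, H2-Q10 at -0.35 and H2-M3 at 0.33. Of 9 further loading and trimming genes, 4 were higher, such as the chaperone Pdia3 (0.27), and 3 lower, namely Sppl2a (-0.58), the tapasin relative Tapbpl (-0.55) and the aminopeptidase Lnpep (-0.32). All 6 genes of a type I interferon list (Ifit1, Ifit2, Ifit3, Isg15, Rsad2 and Oasl1) were lower in C1qa-high cells, and so were 6 of 8 genes of an IFN-γ list (Cxcl9, Gbp2, Gbp4, Gbp5, Irgm1, Iigp1, Igtp and Ifng), with 1 higher.

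Immunosubunits replace constitutive subunits one for one, so the share of the immunosubunit was computed for each pair, as UMIs of Psmb8 in the sum of Psmb8 and Psmb5, of Psmb9 in that with Psmb6 and of Psmb10 in that with Psmb7. As both genes of a pair come from the same cells, the share does not depend on scaling. It is a share of transcript UMIs of different genes, so its level does not give the makeup of the proteasome. Only its differences between classes or lines are read, and subunit protein was not measured. The β1i share (Psmb9) was 50.7% ± 4.94 (SD, n = 8 mice) in lymphoid cells, 37.8% ± 6.71 in C1qa-high and 46.6% ± 5.76 in C1qa-low cells. It was lower in C1qa-high than in C1qa-low cells of all 8 mice, by -8.84 percentage points, and higher in lymphoid than in C1qa-high cells of all 8, by 12.9 points (two-sided exact permutation test of signs, p = 0.00781 each, the smallest that 8 mice allow, adjusted p = 0.0176 over 9 comparisons). The β5i share (Psmb8) was 80.3% ± 1.21, 77.4% ± 3.99 and 81.0% ± 3.19, and the β2i share (Psmb10) 63.6% ± 2.60, 61.0% ± 3.78 and 66.8% ± 1.97, in the same order of classes. These shares too were lower in C1qa-high than in C1qa-low cells of all 8 mice, by -3.54 and -5.8 points (same exact test, adjusted p = 0.0176 each). The constitutive partner of Psmb9 moved against it, with Psmb6 higher in C1qa-high than in C1qa-low cells by 0.29 and lower in lymphoid than in C1qa-high cells by -0.62 (log2). Lymphoid cells differed from C1qa-low cells by 4.05 points for β1i, -0.71 for β5i and -3.23 for β2i (same exact test, adjusted p = 0.0234, 0.453 and 0.0301). The β2i call was lost when either parental mouse, E0771-Res1 replicate 1 or any E0771-Res2 mouse was left out (adjusted p = 0.0527 to 0.0603, same exact test).

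**Figure D3:**
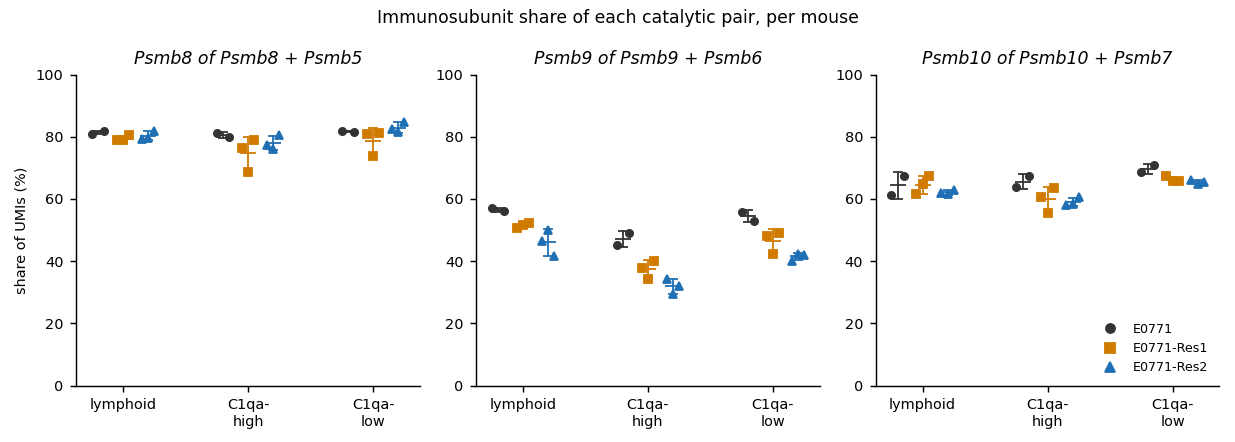
Share of the immunosubunit in each catalytic pair (y axis, percent of the UMIs of both subunits) by cell class, 1 point per mouse, colored by tumor line. The share of Psmb9 is lowest in C1qa-high cells, and in each class the 2 parental mice lie above the 6 resistant mice.

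Within the lymphoid gate, CD8+ T cells, the cells that read class I molecules, were compared with other T cells of the same mice (10 to 61 CD8+ cells per mouse). The CD8+ cells were deeper, with a median of 9315.5 to 14632 UMIs per cell and mouse against 6045.5 to 8920. The part of depth in these results was not tested. Other T cells were defined by no Cd8a or Cd8b1 UMI, so CD8+ cells with undetected transcripts can be among them. Of the 10 genes, 4 were lower in CD8+ T cells and none higher, against 30.6% of all genes called (14.1% higher, 16.5% lower, and under total scaling the share of higher calls went from 46.1% to 59%). H2-D1 averaged 3544 CPM in CD8+ and 4621 in other T cells (-0.38 ± 0.08, edgeR adjusted p = 0.000939), B2m 5528 and 6863 (-0.31 ± 0.07, edgeR adjusted p = 0.00206) and Tapbp 239 and 325 (-0.42 ± 0.11, edgeR adjusted p = 0.00505), each in 8 of 8 mice. H2-K1, at 3494 and 4054, lay just under the threshold (-0.21 ± 0.08, edgeR adjusted p = 0.0493, 7 of 8 mice) and was not called under 5 of the alternatives, DESeq2 among them (adjusted p = 0.0753), or when any mouse other than E0771-Res1 replicate 2 was left out (-0.22 to -0.17). Among lymphoid cells with at most 1 C1qa UMI, 4 genes were called, with H2-D1, B2m and Tapbp among them and H2-K1 not. The other 6 genes lay between -0.27 and 0.17. All 6 type I interferon genes and 6 of the 8 IFN-γ genes were lower in CD8+ T cells too, while Ifng itself was higher by 3.19.

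NK cells (12 to 40 per mouse, Ncr1 with at most 1 CD3 UMI) differed from T cells in Tap1 alone of the 10, against 17% of all genes (7.43% higher, 9.53% lower). Tap1 averaged 208 CPM in NK and 272 in T cells and was lower in 7 of 8 mice (-0.37 ± 0.12, edgeR adjusted p = 0.0447). This call was lost with DESeq2 (adjusted p = 0.0706) and when E0771 replicate 1, E0771-Res1 replicate 1 or 3 or E0771-Res2 replicate 1 or 3 was left out (-0.41 to -0.29). The other 9 genes lay between -0.03 and 0.17, with B2m at 6361 in both. Of the other loading and trimming genes, Bcap31, an endoplasmic reticulum export factor (0.41), and Pdia3 (0.32) were higher in NK cells.

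Mature dendritic cells carry antigen from the tumor to lymph nodes. They were taken as cells outside the lymphoid gate with at most 1 C1qa UMI and at least 3 UMIs of Ccr7 and Fscn1 together. There were 11 to 52 such cells in 7 mice, with E0771 replicate 3 left out for having fewer than 10. The myeloid gate was not applied to them, so not all of them belong to the C1qa-low class. Of the 10 genes, 7 were higher in them than in the other C1qa-low cells and none lower, against 39.8% of all genes called (17.7% higher, 22.1% lower), and the median of the 10 was 0.56 against -0.09 for all genes. Psmb8 stood at 2275 CPM in the dendritic cells of the parental mouse, at 2367, 2311 and 2463 in those of E0771-Res2 and at 2133, 1805 and 1718 in those of E0771-Res1 mice, whereas the other C1qa-low cells held 926 to 1147. Psmb9 stood at 721 in the parental mouse, 1139, 999 and 993 in E0771-Res2 and 828, 597 and 621 in E0771-Res1 mice, against 332 to 470 in the other cells. The differences of Psmb8 and Psmb9 were 1.08 ± 0.13 and 1.06 ± 0.14 (edgeR adjusted p = 3.83e-09 and 3.35e-08). The third immunosubunit did not follow, since Psmb10 averaged 370 and 375.5 (-0.01, edgeR adjusted p = 0.98). Nlrc5 (0.95), H2-K1 (0.64), Tap2 (0.64), H2-D1 (0.49) and Tap1 (0.48) were higher as well (edgeR adjusted p = 0.00013, 2.27e-05, 0.000908, 0.00112 and 0.00405), the call on Tap1 being lost with no filter on low counts (0.306). B2m and Tapbp differed by 0.11 and 0.24 and were not called.

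Other genes of these lists went both ways in mature dendritic cells. Of the other class I chains, 6 of 10 were higher, led by Cd1d1 (4.54), H2-M2 (2.52) and H2-Q6 (2.17), and 1 was lower (H2-T24, -1.66). Of 9 further loading and trimming genes, the tapasin relative Tapbpl was higher (1.83) and 5 were lower, among them Sppl2a (-0.59), the peptidase Tpp2 (-0.59) and the chaperone Pdia3 (-0.58), with a median of -0.38. Of 16 further proteasome genes, the activator subunits Psme2 (1.73) and Psme1 (1.005) were higher and none was lower. Of 17 regulators, 5 were higher, such as Irf8 (1.90) and Rfx5 (1.80), and 5 lower, such as the IFN-γ receptor chain Ifngr1 (-1.40). All 6 type I interferon genes were lower in mature dendritic cells. The 5 dendritic markers (Flt3, Zbtb46, Cd209a, Ccr7 and Xcr1) summed to 2164 to 3437 CPM in these cells. Because Ccr7 is in the gate, the gate itself raises this sum, and the other markers were not summed apart. In all C1qa-low cells, scaled in another fit, the 5 summed to 144 to 340.

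To see how the 10 genes follow the interferon state of myeloid cells, cells with 10 or more UMIs of the 6 type I interferon genes, none of them a member, were compared with cells that held 0 or 1. All 10 were higher in interferon-high cells of all 8 mice, against 22.9% of all genes called (14% higher, 8.9% lower), and the median of the 10 was 0.87 against -0.04 for all genes. Psmb9 ranged from 468 to 621 CPM in interferon-high and from 139 to 308 in interferon-low cells (1.15 ± 0.08, edgeR adjusted p = 4.93e-12). Psmb10 ranged from 395 to 522 and from 190 to 238 (1.14 ± 0.07, edgeR adjusted p = 1.37e-13), and Tap1 from 269 to 404 and from 103 to 201 (1.08 ± 0.08, edgeR adjusted p = 1.22e-11). Psmb8 ranged from 1138 to 1379 and from 607 to 760, and Tapbp from 340 to 468 and from 158 to 239. The chains of the class I molecule itself differed least, with B2m at 0.45 ± 0.05, H2-K1 at 0.36 ± 0.06 and H2-D1 at 0.35 ± 0.05 (edgeR adjusted p = 9.3e-08, 1.23e-05 and 1.55e-06), and for B2m and H2-K1 the ranges overlapped (6867 to 8989 against 4499 to 7222, and 2992 to 3794 against 2046 to 3273). Tapbp (0.97), Nlrc5 (0.92), Psmb8 (0.83) and Tap2 (0.81) lay between.

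**Figure D4:**
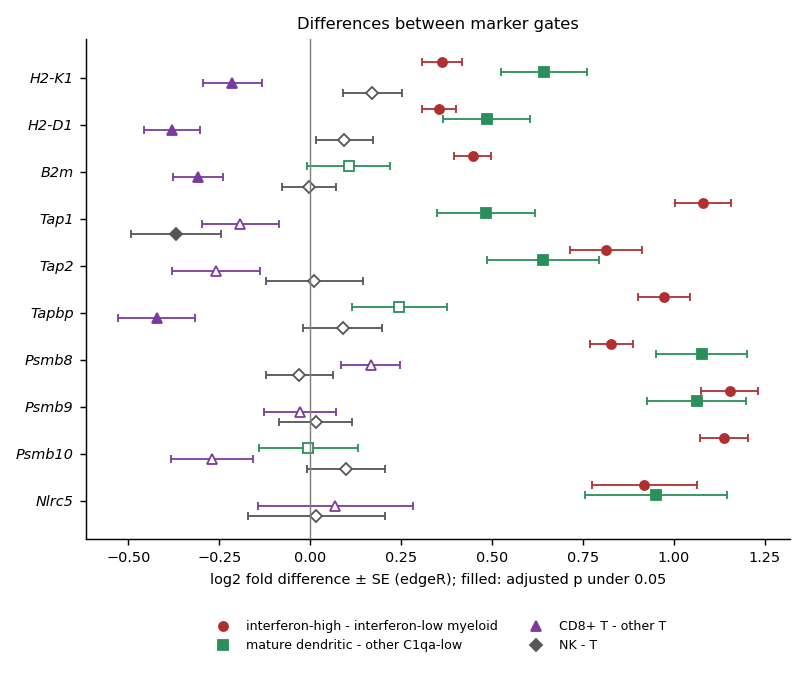
Difference of each gene (x axis, log2 ± SE, edgeR) between interferon-high and interferon-low myeloid cells, mature dendritic and other C1qa-low cells, CD8+ and other T cells, and NK and T cells, with filled symbols at an adjusted p under 0.05. All 10 genes are higher in interferon-high cells, and Psmb8, Psmb9 and Nlrc5 stand apart in mature dendritic cells while Psmb10 lies at 0.

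Interferon-low cells were shallower, with a median of 3141.5 to 7173 UMIs against 6121 to 8835, and held less of the monocyte markers (2415 to 4881 against 6169 to 10960 CPM). With the gate set per 10000 UMIs of a cell, where the median UMIs were 3257.5 to 9085 in interferon-low and 5195 to 8094 in interferon-high cells, and likewise with the gate applied within C1qa-low cells only, both added after seeing the data, all 10 genes were called again. Under total scaling the share of higher calls over all genes went from 61.2% to 22.1% and the median of all genes moved by -0.201, and the 10 genes stayed called higher. Of 11 other class I chains 6 were higher and none lower, with H2-T24 at 1.92, H2-T22 at 1.41 and H2-T23, the Qa-1 chain, at 0.93. Of 16 further proteasome genes 12 were higher and none lower (Psme2 0.89, Psme1 0.76, Psma4 0.68, Psma5 0.56), and of 17 regulators 8 were higher and 1 lower (Stat2 1.66, Socs1 1.28, Rfxank 1.05).

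The next comparison asked whether the genes differ between resistant and parental tumors. In C1qa-high cells, E0771-Res2 tumors had less Tap1, Psmb9 and Psmb10 than parental tumors, which made 3 of 10 genes lower and none higher, against 1.79% of all genes called (0.635% higher, 1.15% lower). Tap1 stood at 285 and 309 CPM in the parental mice, at 181, 193 and 198 in the E0771-Res2 mice and at 191, 170 and 218.5 in the E0771-Res1 mice. Both parental mice lay above all resistant ones. The difference was -0.64 ± 0.11 for E0771-Res2 (edgeR adjusted p = 0.0116) and -0.61 ± 0.12 for E0771-Res1, which was not called (edgeR adjusted p = 0.0662). Psmb9 stood at 506 and 570 in the parental mice, at 390.5, 325 and 362 in E0771-Res2 and at 375, 306 and 420 in E0771-Res1. Again the parental mice did not overlap with the others, with -0.58 ± 0.13 for E0771-Res2 (edgeR adjusted p = 0.0374) and -0.54 ± 0.13 for E0771-Res1 (edgeR adjusted p = 0.0897, not called). Psmb10 stood at 375.5 and 414 in parental, 278, 256 and 282 in E0771-Res2 and 328, 295 and 383 in E0771-Res1 mice, so that 1 E0771-Res1 mouse reached the parental range. Its difference was -0.53 ± 0.12 for E0771-Res2 (edgeR adjusted p = 0.0342) and -0.23 for E0771-Res1.

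Of the other genes, Psmb8 was at 1068 and 1125 in parental, 846, 775 and 859 in E0771-Res2 and 899, 765 and 975 in E0771-Res1 mice, apart in all mice but short of the threshold (-0.41, edgeR adjusted p = 0.0716, and -0.32, adjusted p = 0.243). Nlrc5, Tap2, Tapbp, H2-K1 and H2-D1 had differences of -0.59, -0.37, -0.32, -0.16 and -0.12 in E0771-Res2 that were not called. H2-K1 stood at 4048 and 4371 in parental, 3869, 3414 and 4059 in E0771-Res2 and 3140, 3243 and 3421 in E0771-Res1 mice, where only the last group lay apart from the parental mice (-0.37 ± 0.09, edgeR adjusted p = 0.114). In E0771-Res2 B2m did not share the sign of the rest, with 7400 and 7409 in parental against 8306, 7846 and 8755 in E0771-Res2 mice (0.16, edgeR adjusted p = 0.39). In E0771-Res1 it stood at 6697, 6548 and 7109, and there all 10 values were negative (-0.13 for B2m). No member was called for E0771-Res1 with edgeR, against 0.11% of all genes, while 6 of 10 had an unadjusted p under 0.05 (1083 of all genes), 2 were called with DESeq2 (Tap1 and Psmb9) and 3 with edgeR when E0771-Res1 replicate 3 was left out. The mice of the 2 lines did not overlap for 8 of the 10 genes in E0771-Res2 (37.3% of all genes) and for 6 of the 10 in E0771-Res1 (27.2% of all genes). The median of the 10 was -0.39 for E0771-Res2 and -0.30 for E0771-Res1, against 0.002 and -0.002 for all genes.

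The calls in E0771-Res2 rest on few mice. None of the 3 was called without E0771 replicate 1, without E0771 replicate 3 or without E0771-Res2 replicate 1, and 1 (Tap1) was called without E0771-Res2 replicate 2 or 3, although the value of Tap1 stayed between -0.70 and -0.58 throughout. C1qa-high cells also differed between the lines in other ways. Their median UMIs per cell were 10199 to 10331 in parental, 7001 to 8894.5 in E0771-Res2 and 10178.5 to 11481 in E0771-Res1 mice, the monocyte markers summed to 3379 to 4198, 1873 to 2262 and 1618 to 2815 CPM, and the C1q macrophage markers to 17410 to 17850, 22020 to 23930 and 17350 to 23040, in the same order. Their part in the difference was not tested.

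The IFN-γ list holds no member. Of its 8 genes, 7 were higher and 1 lower in interferon-high than in interferon-low myeloid cells (median 2.53). The list thus also followed the type I interferon gate. The sum of its genes was 1436 to 1472 CPM in parental C1qa-high cells, 672 to 684 in E0771-Res2 and 565 to 1273 in E0771-Res1. Of 8 listed, 5 fell in E0771-Res2, among them the T cell chemokine Cxcl9 (-1.46) and the guanylate-binding proteins Gbp2 (-1.08) and Gbp5 (-1.02), with a median of -0.90 over the 8. For E0771-Res1 none of the 8 was called with edgeR (median -0.62), while 6 had an unadjusted p under 0.05 and 2 were called with DESeq2. Among regulators, Irf1 (-0.87, edgeR adjusted p = 0.00759) and Socs1 (-1.12, edgeR adjusted p = 0.0484) fell in E0771-Res2. The sums of the 6 type I interferon genes overlapped between all lines, with 3370 to 5840 in parental, 2788 to 3526 in E0771-Res2 and 2289 to 3866 in E0771-Res1 mice. The medians of the 6 were -0.48 for E0771-Res2 and -0.47 for E0771-Res1, and none was called with edgeR or DESeq2, with 1 and 3 at an unadjusted p under 0.05.

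**Figure D5:**
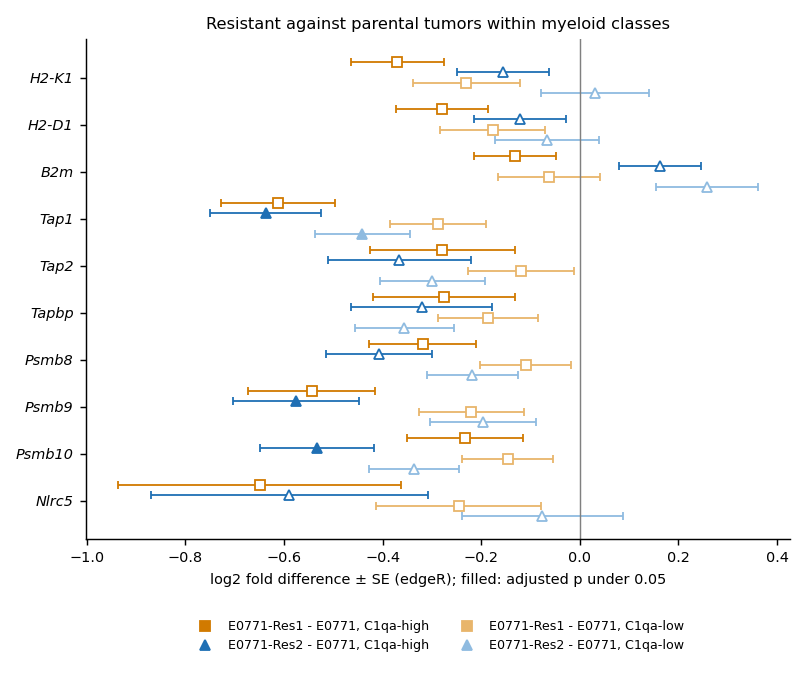
Difference of each gene from parental tumors (x axis, log2 ± SE, edgeR) for E0771-Res1 and E0771-Res2 in C1qa-high and C1qa-low myeloid cells, with filled symbols at an adjusted p under 0.05. Tap1, Psmb9 and Psmb10 in C1qa-high and Tap1 in C1qa-low cells of E0771-Res2 tumors are filled, and B2m has positive values in both classes of E0771-Res2.

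In C1qa-low cells Tap1 was the member called for E0771-Res2, against 4.15% of all genes (1.71% higher, 2.44% lower). It stood at 340 and 351 CPM in parental, 250, 245.5 and 261 in E0771-Res2 and 269.5, 268 and 307 in E0771-Res1 mice, again with both parental mice above the rest (-0.44 ± 0.10, edgeR adjusted p = 0.0196, for E0771-Res2 and -0.29, adjusted p = 0.357, for E0771-Res1). Without either parental mouse, or without E0771-Res2 replicate 1 or 3, it was not called (-0.47 to -0.42). Psmb10 stood at 480 and 481 in parental against 373, 377 and 381 in E0771-Res2 mice (-0.34, edgeR adjusted p = 0.0514), and Tapbp at 446 and 417 against 352, 313 and 337.5 (-0.36, edgeR adjusted p = 0.0617). Both lay close to the threshold without passing it, and both were called with no filter on low counts or with only the 2 lines in the fit. For E0771-Res1 no member was called with edgeR or DESeq2, against 0.0102% of all genes, and 1 of 10 had an unadjusted p under 0.05 (880 of all genes). All 10 values lay between -0.29 and -0.06. The mice did not overlap for 7 of the 10 genes in E0771-Res2 (38.7% of all genes) and 9 in E0771-Res1 (25% of all genes). Of the IFN-γ list, 4 of 8 genes fell here in E0771-Res2 (Gbp2 -0.89, Igtp -0.65, Irgm1 -0.62 and Gbp5 -0.56), as did Sppl2a (-0.43), while the constitutive subunit Psmb6 was higher (0.55, edgeR adjusted p = 0.00566). Monocyte markers summed to 12220 to 12660 in parental, 8167 to 10350 in E0771-Res2 and 8427 to 10640 in E0771-Res1 mice, and the part of this difference was not tested.

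The share of immunosubunits gave the same comparison within a pair of genes. In C1qa-high cells the β1i share (Psmb9) was 45.3% and 49.0% in the parental mice, while E0771-Res2 mice had 34.2%, 29.5% and 32.1% and E0771-Res1 mice 37.9%, 34.3% and 40.0%. In C1qa-low cells the parental mice had 55.8% and 53.0%, E0771-Res2 mice 40.2%, 42.4% and 42.1% and E0771-Res1 mice 48.1%, 42.2% and 49.1%. Both parental mice exceeded all resistant mice in both classes, by means of 12.5 and 10.4 points (two-sided exact permutation test of all 28 ways to divide the mice, p = 0.0357 each, the smallest that the design allows, adjusted p = 0.0804 over 9 comparisons). In C1qa-low cells of E0771-Res2 the 2 genes of the β1i pair had differences of -0.20 for Psmb9 (edgeR adjusted p = 0.346, not called) and 0.55 for Psmb6 (called higher), and in C1qa-high cells of -0.58 and 0.34 (the latter not called, edgeR adjusted p = 0.0642). The β2i share (Psmb10) was likewise lower in resistant mice by -6.12 points in C1qa-high and -3.79 points in C1qa-low cells (same exact test, adjusted p = 0.0804 each), and the β1i share in lymphoid cells by -7.73 points (adjusted p = 0.129, same exact test). None of these passed the adjusted threshold.

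In lymphoid cells no member was called between lines, with edgeR or with DESeq2. Against E0771 the 10 genes lay between -0.44 and 0.10 for E0771-Res1 and between -0.23 and 0.31 for E0771-Res2, against 0.0433% and 0.953% of all genes called (in E0771-Res2 78.4% of these calls were higher, and 67.5% under total scaling), and 2 of 10 had an unadjusted p under 0.05 in each (482 and 1040 of all genes). Tap1, which stood at 252 and 232 CPM in the lymphoid cells of parental mice, was at 218, 223 and 214.5 in E0771-Res2 and at 227, 198.5 and 279 in E0771-Res1 mice, where the E0771-Res1 mice spread on both sides of the parental ones. B2m had the highest value for E0771-Res2, with 4931 and 5094 in parental and 6306, 5601 and 6757 in E0771-Res2 mice (0.31, edgeR adjusted p = 0.17). The makeup of the lymphoid gate also differed between lines. CD8+ T cells made up 3.14% to 5.437% of kept cells in parental, 0.8686% to 1.585% in E0771-Res2 and 1.656% to 2.871% in E0771-Res1 mice. All lymphoid cells made up 11.24% to 16.04%, 9.026% to 13.08% and 11.75% to 14.26%, in the same order. C1q macrophage markers in the gate summed to 3386 to 4396, 5512 to 7133 and 4028 to 6033 CPM. The part of these differences was not tested.

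The resistant lines were also compared with each other, and no member was called with edgeR in any class. B2m came closest, at 8306, 7846 and 8755 in E0771-Res2 against 6697, 6548 and 7109 in E0771-Res1 C1qa-high cells (0.29 ± 0.07, edgeR adjusted p = 0.0527) and at 8279, 7375 and 8544 against 6651, 6158 and 6631 in C1qa-low cells (0.32 ± 0.09, edgeR adjusted p = 0.0695). The mice of the 2 lines did not overlap in either class, as for 2 of the 10 genes in C1qa-high cells (21.1% of all genes) and 6 in C1qa-low cells (21.5% of all genes). All genes were called at 2.68% in C1qa-high, 3.81% in C1qa-low and 0.996% in lymphoid cells. Of the members 3, 3 and 1 had an unadjusted p under 0.05 (1439, 1703 and 1024 of all genes), and DESeq2 called 0, 1 and 0. The 10 genes lay between -0.19 and 0.24 in lymphoid cells.

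Whether the difference between lines depends on the cell class was tested as an interaction with lymphoid against C1qa-high cells. All 10 genes had positive terms for both lines, that is a smaller deficit or a greater excess against parental tumors in lymphoid than in C1qa-high cells, but none was called with edgeR, against 0% and 0.174% of all genes for E0771-Res1 and E0771-Res2. The share of all genes with a positive term was not computed. The median term was 0.32 and 0.31 over the 10 and 0.001 and 0.018 over all genes. All 18 genes called for E0771-Res2 had positive terms. So had 24 of 25 and 42 of 44 genes called with DESeq2 for E0771-Res1 and E0771-Res2. The lymphoid gate also differed in makeup between lines, and the part of this was not tested. Tap1 had the terms 0.55 ± 0.13 and 0.47 ± 0.13 (edgeR adjusted p = 0.144 and 0.131). Unadjusted, 8 and 6 of the 10 had a p under 0.05 (778 and 1001 of all genes), and DESeq2 called 3 and 0.

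Across the 24 sums of 8 mice and 3 classes, the members did not form a single pattern. The Pearson correlation of a member with the mean of the other 9 was 0.906 for Tap1, 0.841 for Tapbp, 0.839 for Psmb9, 0.821 for Psmb8 and 0.771 for Psmb10, 0.574 for Nlrc5, 0.518 for H2-D1 and 0.475 for Tap2, but 0.113 for B2m and -0.164 for H2-K1. The sums share mice, class and depth, so these values are descriptions. Of 4374 genes with a high enough level, the 5 outside the family most like the mean of the members were Psme1 (r = 0.909), H2-T23 (0.904), Cd47 (0.899), Sp110 (0.894) and Zbp1 (0.888).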

How the data were processed

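The authors implanted the lines, sorted CD45+ cells, pooled the tagged mice, prepared Chromium 3′ libraries and, per the file headers, counted UMIs with Cell Ranger 6.1.2, on mm10 per the submitters' processing notes. The deposited values were raw UMI counts per gene and cell, 1 matrix per mouse, and the 9 tag features were left out. Parental values rest on 2 mice, or on 1 for mature dendritic cells, and a further parental mouse that the paper describes was not analysed here. As in the paper, genes with names in mt-, Rpl, Rps or Gm were dropped, which removed 19.34% to 21.25% of the UMIs of a mouse. Counts were summed per mouse and cell gate over the kept cells. Myeloid cells were cells outside the lymphoid gate with at least 5 UMIs of Lyz2, Fcer1g and Tyrobp together, and a gate needed 10 cells in a mouse. CD8+ T cells held at least 2 UMIs of Cd8a and Cd8b1, and other T cells none.

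The sums were tested with edgeR 4.0.16 in R 4.3.3 (quasi-likelihood test, TMM, filterByExpr), 1 fit per class holding all 3 lines, and with mouse as a block between classes or gates. All p-values were Benjamini-Hochberg adjusted over all genes tested, and a gene was called at an adjusted p under 0.05. Levels are TMM-scaled CPM. Those of lymphoid, C1qa-high and C1qa-low cells come from the fit between classes, also where lines are compared. Levels of the other gates come from the fit of their own comparison, and levels are not comparable between fits. The log2 differences between lines come from the fit of each class. Shares of immunosubunits were tested by exact permutation in Python 3.11.15, with adjustment over 9 comparisons. Alternatives were RLE scaling, DESeq2 1.42.0, no filter on low counts, all genes kept, all deposited cells, other gates, each mouse left out and other blocks. Total count scaling, lymphoid cells with at most 1 C1qa UMI and 2 further interferon gates were added after seeing the data. The members, the lists and the rule for naming other genes (up to 4 of the called genes of a list by size of change, and the 5 genes most like the members with an average log2 CPM of at least 5) were chosen with earlier results of these data known. Replicate numbers in the labels were not taken as pairs. Deviations from the line mean correlated by -0.06 to 0.268 for mice with the same number and by -0.169 to 0.127 for others. Within a line of 2 or 3 mice these deviations depend on each other, so this check cannot exclude pairing. Replicates differed by more than sampling noise (chi-square per degree of freedom 2.69 to 13.21). The steps were tested on simulated data. The tagged cells were pooled, and nothing says how the mice of a group were housed. The p-values measure the spread between these mice. A gene of the regulator list and a promoter motif are not reported here.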

Additional observations from a re-analysis of the deposited data

Results flagged for a closer look

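Tap1 and Psmb9 differed in opposite directions between lymphoid and C1qa-high cells in parental and resistant tumors. Every parental mouse had less Tap1 in its lymphoid than in its C1qa-high cells (-0.412 and -0.175 on the log2 scale), and every resistant mouse had more (0.22 to 0.354 in E0771-Res1, 0.116 to 0.273 in E0771-Res2). The mean difference between the lines was 0.568 for E0771-Res1 and 0.493 for E0771-Res2. For Psmb9 the parental mice had -0.194 and -0.036, E0771-Res1 mice 0.088 to 0.292 and E0771-Res2 mice 0.199 to 0.394, with differences of 0.318 and 0.38. The share of all genes that divide the parental from the resistant mice in this way was not computed. The edgeR interaction terms of these genes were not called (adjusted p = 0.144 and 0.131 for Tap1, 0.518 and 0.229 for Psmb9), both contrasts share the 2 parental mice, and no cause was tested.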

How the results depend on the processing

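The number of members called was within 1.5 times its value under all alternatives for the class comparisons, for CD8+ T cells, mature dendritic cells and interferon-high cells (all 10 throughout), and for E0771-Res2 against E0771 in C1qa-high cells except when mice were left out. A steady number does not mean that the same genes were called. With total count scaling, B2m, Tap1, Psmb8 and H2-D1 lost their calls in lymphoid against C1qa-low cells. In CD8+ against other T cells, the call on H2-K1 was lost in 12 of 19 settings. For the other comparisons the number itself moved. For E0771-Res1 against E0771 in C1qa-high cells it was 2 with DESeq2, 3 with no filter on low counts and 1 with the replicate block, in place of 0. For E0771-Res2 against E0771 it was 1 in lymphoid cells with no filter, with gates per 10000 UMIs or with the replicate block, in place of 0, and in C1qa-low cells, in place of 1, it was 2 with RLE scaling, DESeq2, all genes kept or all deposited cells and 3 with no filter or only the 2 lines compared. For E0771-Res2 against E0771-Res1 it was 1 in C1qa-high cells (no filter, all genes kept, all deposited cells, gates per 10000 UMIs) and 1 in C1qa-low cells (DESeq2, no filter, all genes kept), in place of 0. For the interactions it was 3 with DESeq2 and 1 with no filter for E0771-Res1, and 1 with gates per 10000 UMIs for E0771-Res2, and for NK cells 0 with DESeq2. The cause was not tested.

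The labels do not say that mice with the same replicate number are pairs, and the block on these numbers changed no other call between lines. With 1 mouse left out at a time, the count ranged from 0 to 4 for E0771-Res2 against E0771 in C1qa-high, 0 to 3 in C1qa-low (3 without E0771-Res1 replicate 1) and 0 to 1 in lymphoid cells (1 without E0771-Res2 replicate 2), from 0 to 3 for E0771-Res1 in C1qa-high cells (3 without E0771-Res1 replicate 3), from 0 to 1 in C1qa-high (1 without E0771-Res1 replicate 3) and 0 to 2 in C1qa-low cells (2 without E0771-Res2 replicate 2) between the resistant lines, and from 0 to 1 for NK cells.

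Total count scaling turned Psmb8 and H2-D1 in lymphoid against C1qa-low cells to 0.082 and 0.054. Shares between lymphoid and C1qa-low cells were 3.86 points for Psmb9 and -2.19 for Psmb10 with gates per 10000 UMIs, both no longer called, and 0.313 for Psmb8 and -2.31 for Psmb10 in lymphoid cells with at most 1 C1qa UMI, neither called. With mice left out these shares ranged from -1.54 to -0.391 (Psmb8) and from -3.92 to -2.65 (Psmb10, the call lost without 6 of the 8 mice in turn), and Psmb10 between lymphoid and C1qa-high cells from 1.6 to 3.3. Resistant against parental, Psmb8 in C1qa-low cells ranged from -1.85 to 0.37 and Psmb10 in lymphoid cells from -4.13 to 2.01.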
